A study of Mus musculus with 4 samples.

Results

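T cells of mouse hearts were taken from 4 droplet single-cell RNA libraries, 1 for each of 4 groups. One library came from control mice and one from sham mice. The third came from mice with cecal ligation and puncture (CLP, an operation that releases gut contents into the abdomen and models sepsis), and the last from mice with CLP and low-level tragus stimulation (electrical stimulation at the ear, called CLP plus stimulation here). The labels give whole heart tissue and all its cells as the source of every library. Strain, age and sex of the mice, the number of animals pooled into a library, the time of sampling, and whether the CLP plus stimulation mice had any other handling are not stated in the labels and are not given here. A cell was taken as a T cell when at least 2 of the 3 CD3 chain genes Cd3e, Cd3d and Cd3g had a UMI and when RNA of other cells was low or absent. The limits were no Ncr1 (natural killer cells), no Cd79a (B cells), no Cdh5 (endothelium), fewer than 20 UMIs per 10000 from C1qa, C1qb and C1qc (macrophages), and fewer than 20 per 10000 from Col1a2, Dcn and Col3a1 (fibroblasts). These values selected 294 T cells of 41542 kept cells: 67 from control, 73 from sham, 21 from CLP and 133 from CLP plus stimulation. The cells were chosen by measured values of those genes, so the levels of those genes are no finding, and each group is 1 library, so no comparison here has a replicate or a test. All intervals are exact 95% intervals that cover counting error only.

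T cells recognise antigen with a receptor made of an alpha and a beta chain, or of a gamma and a delta chain, which signals through the CD3 chains and the kinases Lck and Zap70. CD8 T cells kill infected cells with granzymes and perforin, CD4 T cells help other immune cells, and gamma-delta T cells of mouse tissues include resident cells that are ready to make interleukin 17. Naive T cells circulate between blood and lymph nodes with the homing receptor Ccr7. In sepsis, loss of lymphocytes from blood and spleen by apoptosis is a known feature of patients and of mice after CLP.

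The libraries held 54611436 to 59465046 UMIs and 8741 to 15964 barcodes. T cells had a median of 3028 UMIs in control, 6220 in sham, 5693 after CLP and 5393 with stimulation added, and summed over all T cells of a library they gave 260409, 726722, 164573 and 1148001 UMIs. Control T cells were therefore the shallowest and CLP T cells the fewest. Levels below are counts scaled to these sums (CPM), always given in the order of the groups above, from control to CLP plus stimulation, and 3 counts in a library correspond to 11.5, 4.13, 18.2 and 2.61 CPM. Pairs of libraries shared 19 to 60 barcode sequences, and 3 T cell barcodes were also found in another library, none of them as a T cell there. CLP lost 2 of its 21 T cells and CLP plus stimulation 1 of 133 when such barcodes were left out. The T cell UMIs of CLP then fell from 164573 to 117108, so these cells held a large part of the CLP sums.

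Of 12 genes of T cell identity that the rule did not use, detection over all T cells ranged from 27.9% for Cd6 to 87.1% for Trbc2. The beta chain constant gene Trbc2 had a UMI in 89.6%, 93.2%, 76.2% and 84.2% of the T cells, against 0.142% to 1.57% of fibroblasts and 0.654% to 1.29% of macrophages. The alpha chain constant gene Trac had a UMI in 38.8%, 69.9%, 52.4% and 69.2% of T cells. Lat, an adaptor of the receptor, was found in 65.3% and Bcl11b, a transcription factor of T cell identity, in 51.0% of all 294, while Trbc1 was found in 47.6%, Tcf7 in 45.2%, Cd247 in 36.7%, Lck in 36.1% and Cd5 in 29.3%. A constant gene of the alpha or beta chain had a UMI in 285 of the 294 cells, and 7 cells had neither these nor Trdc, the constant gene of the delta chain.

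RNA of other cells was present in some T cell barcodes and differed between the libraries. Barcodes with at least 50 UMIs per 10000 from S100a8 and S100a9, abundant neutrophil genes, numbered 1, 4, 3 and 9. They held 1.68%, 7.05%, 34.3% and 18.4% of all T cell UMIs and 95.7%, 98.6%, 99.7% and 98.2% of the S100a8 and S100a9 counts. Barcodes as rich in the MHC class II genes Cd74, H2-Aa, H2-Ab1 and H2-Eb1, which B cells, macrophages and dendritic cells carry, numbered 3, 3, 0 and 13. Together with barcodes rich in Lyz2 or in smooth muscle genes they came to 6, 9, 3 and 20 cells with 24.3%, 22.6%, 34.3% and 35.5% of the UMIs. The neutrophil marker list summed to 791, 3206, 91923 and 32405 CPM with 7, 8, 10 and 10 of its 10 members detected, and the macrophage list to 2120 (8 of 8 members), 1816, 1227 and 1572 CPM. The dendritic cell list summed to 7396, 634, 115 and 3558 CPM with 6, 3, 2 and 6 of its 8 members detected, the natural killer cell list to 837, 629, 1969 and 1459 CPM with 6, 6, 5 and 6 of 7, and the pericyte and smooth muscle list to 80.6, 1306, 48.6 and 39.2 CPM with 4, 6, 5 and 7 of 8. Acute phase genes summed to 1048, 476, 6726 and 11844 CPM. Of the remaining marker lists, the highest sum in any library was 839.7 CPM, for monocytes in CLP plus stimulation. Saa3, an acute phase gene made by many heart cells, had a UMI in 1 of 67, 0 of 73, 21 of 21 and 133 of 133 T cells. Values without these rich barcodes are given below beside the gene groups, and their part in a result beyond that was not tested.

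The edge of the rule lay among cells with few CD3 UMIs. Just outside it, 40, 21, 21 and 178 cells had a UMI of only 1 CD3 chain and met every other limit. Just inside it, 45, 25, 11 and 84 cells had 2 chains, and 22, 48, 10 and 49 cells had all 3. An alpha or beta constant gene had a UMI in 75.0%, 66.7%, 57.1% and 69.1% of the cells with 1 chain and in 100%, 96.0%, 81.8% and 96.4% of those with 2. The limits on other cells' RNA removed a larger part of the CD3-positive cells in control and sham. Before them, 215, 213, 50 and 222 cells had at least 2 chains, and the C1q limit alone was failed by 120, 110, 19 and 46 of these and the Cd79a limit by 51, 56, 7 and 34.

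T cells were scarcest in the heart after CLP and most frequent with CLP plus stimulation. They made up 0.430% (0.333% to 0.545%) of kept cells in control, 0.814% (0.639% to 1.02%) in sham, 0.252% (0.156% to 0.385%) after CLP and 1.54% (1.29% to 1.82%) with CLP plus stimulation. The share was 1.90-fold (1.34 to 2.68) higher in sham than in control, 3.23-fold lower in CLP than in sham, and 6.10-fold (3.83 to 10.2) higher in CLP plus stimulation than in CLP. Each neighbouring pair of these 3 comparisons shares a library, so a single low library, CLP, enters the last 2. Since every number comes from 1 library, fewer T cells in the tissue and fewer T cells captured cannot be told apart.

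CLP was the lowest library and CLP plus stimulation the highest under each definition tried here, while the gaps between libraries changed. Among cells with a UMI of Ptprc, the gene of the leukocyte antigen CD45, T cells were 51 of 3640, 66 of 3472, 13 of 1802 and 115 of 3747, or 1.40%, 1.90%, 0.721% and 3.07%. CLP was again the lowest and CLP plus stimulation the highest, while the sham to control ratio narrowed to 1.36 (0.927 to 2.00). With no limit on other cells' RNA the shares were 1.38%, 2.38%, 0.60% and 2.57%, so that sham and CLP plus stimulation lay close together. When every cell was thinned to 1000 UMIs before the rule was applied, 30, 20, 8 and 24 T cells remained (0.229%, 0.247%, 0.109% and 0.334%). CLP stayed the lowest at equal depth, and control and sham then lay close together.

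The neighbouring lymphocytes were also scarce after CLP. B cells numbered 169, 138, 26 and 101, or 1.08%, 1.54%, 0.312% and 1.17% of kept cells, 4.93-fold lower in CLP than in sham and 3.74-fold higher in CLP plus stimulation than in CLP. Natural killer cells numbered 12, 23, 4 and 6, or 0.0769%, 0.256%, 0.0480% and 0.0694% of kept cells. Their share was 5.34-fold lower in CLP than in sham, but the intervals of CLP (0.0131% to 0.123%) and control (0.0398% to 0.134%) overlap. With stimulation it was 1.45-fold that of CLP, with an interval of 0.343 to 6.96 that includes no change. There were 2.52, 1.89, 1.24 and 0.759 B cells per T cell, so under this rule T cells outnumbered B cells only in CLP plus stimulation. Which kind was more numerous depended on the T cell rule, which alone was varied while the B cell rule stayed as it was. With at least 1 CD3 chain there were 107, 94, 42 and 311 T cells, and with all 3 chains 22, 48, 10 and 49. With at least 2 chains and no limit on other cells' RNA there were 215, 213, 50 and 222. Of these, 51, 56, 7 and 34 had a Cd79a UMI, so T and B cells were then counted under unlike limits.

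**Figure D1:**
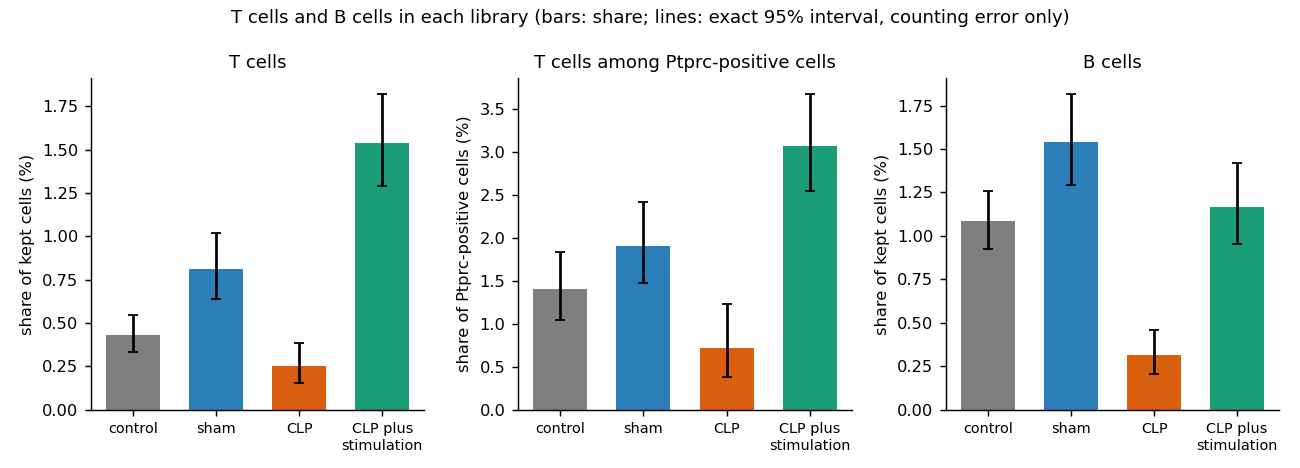
Share of T cells among kept cells, of T cells among cells with a Ptprc UMI, and of B cells among kept cells, in percent on axes that start at 0, with 1 bar per library and lines for the exact 95% interval. CLP is the lowest library in all 3 panels, and CLP plus stimulation reaches 1.54% of kept cells in the first.

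CD8 T cells made up a larger part of the T cells in sham than in the other libraries. Cells with a UMI of Cd8a or Cd8b1, the genes of the CD8 coreceptor chains, and none of Cd4 were 13 of 67, 31 of 73, 2 of 21 and 38 of 133, or 19.4% (10.8% to 30.9%), 42.5% (31.0% to 54.6%), 9.52% (1.17% to 30.4%) and 28.6% (21.1% to 37.0%). After each T cell was thinned to 1000 UMIs, leaving out 3, 0, 1 and 1 shallower cells, the same shares were 12.5%, 24.7%, 5.0% and 6.82%, with sham still the highest. The gate was passed by at most 0.314% of fibroblasts in any library, which should lack these genes and had median depths of 4359, 7614, 8278 and 6393 UMIs. Cells with Cd4 and no CD8 gene were 3, 8, 0 and 7. The 0 of 21 in CLP limits only cells with such a UMI, to a share of up to 16.1% by the exact interval, and not cells that express the gene. The gene Cd4 is detected poorly in such data, and 0.477% to 2.57% of macrophages had it without a CD8 gene, so the 51, 33, 19 and 85 T cells with no coreceptor UMI cannot be assigned. Foxp3, the transcription factor of regulatory T cells, had a UMI in 0, 1, 0 and 2 cells.

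**Figure D2:**
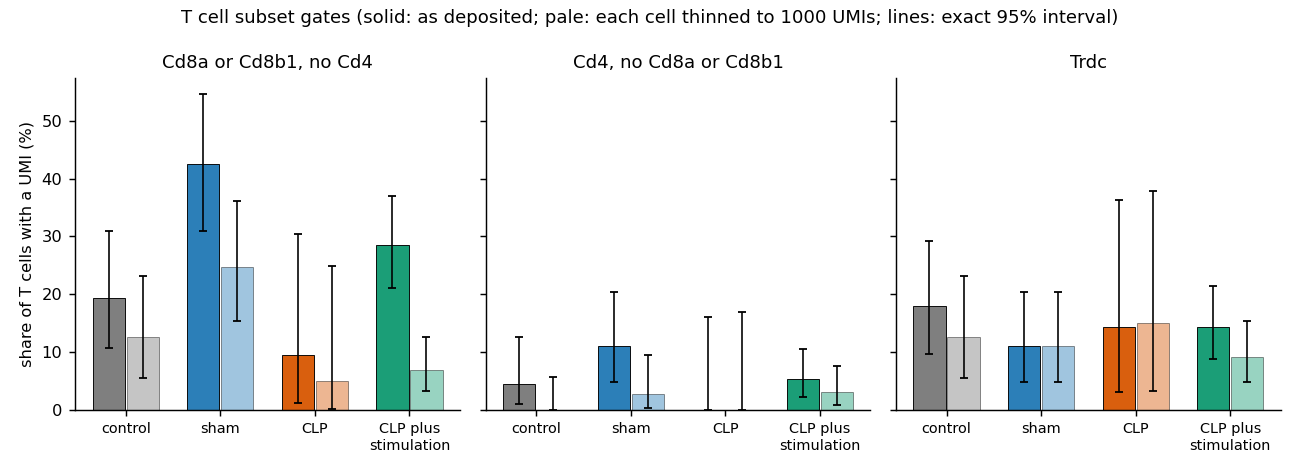
Share of T cells with a UMI of Cd8a or Cd8b1 and no Cd4, of Cd4 and no CD8 gene, and of Trdc, in percent, as deposited (solid bars) and after thinning each cell to 1000 UMIs (pale bars), with exact 95% intervals. The CD8 share is highest in sham at either depth (42.5% and 24.7%), and the Trdc shares lie between 9.09% and 17.9% with overlapping intervals.

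A gamma-delta population of the interleukin 17 type was present in every library. Trdc had a UMI in 12, 8, 3 and 19 T cells, or 17.9%, 11%, 14.3% and 14.3%, and the intervals of these shares overlap in every pair of libraries. Il17a, the gene of interleukin 17A (chr1:20730905-20734496, plus strand of GRCm38), was found in 23 of the 294 T cells, and 22 of those 23 also had Trdc and 21 had Trdv4, the variable gene of the delta chain used by this population. Cd163l1, a scavenger receptor gene of interleukin 17 making gamma-delta cells, was in 16 of the 23, the interleukin 23 receptor gene Il23r in 13, and Ifng, the interferon gamma gene, in none. Trdv4 was the delta variable gene of nearly all such reads, with 50, 42, 32 and 82 counts in 11, 8, 2 and 11 cells. Of the 42 cells with Trdc, 3 had a CD8 gene, and 40 had an alpha or beta constant gene. Of the 23 cells with Il17a, 6 had Trac. Trdc was found in at most 0.503% of fibroblasts in any library.

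Per T cell RNA, the gamma-delta genes were lowest in sham or in CLP plus stimulation. Il17a had 19, 31, 34 and 114 counts in 4, 4, 3 and 12 cells, or 73.0, 42.7, 207 and 99.3 CPM. Its level was highest in CLP, where 21 of the 34 counts came from a single cell. Trdc stood at 353, 199.5, 316 and 117 CPM and Trdv4 at 192, 57.8, 194 and 71.4 CPM. Of the 20 genes of the gamma-delta and interleukin 17 list, 9 had at least 20 counts over control and sham, all 9 were lower in sham, and the median log2 ratio was -1.06 (-1.31 without the rich barcodes). In CLP plus stimulation over CLP the median was -0.78 over 10 genes (-1.41 without the rich barcodes). The CLP values of the list rest on 3 cells with Trdc.

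Gene levels were compared over the summed counts of 2 libraries at a time, and a gene counts here as at least 2-fold higher or lower among genes with at least 20 counts over both. The median log2 ratio of all such genes was 0.10 for sham over control (4604 genes), -0.24 for CLP over sham (4323 genes) and 0.23 for CLP plus stimulation over CLP (5713 genes). Of the genes at least 2-fold apart in either direction, 613 of 859, 742 of 1125 and 617 of 1412 had a counting interval that left out 0. Of all genes tested, 13.3% were at least 2-fold higher and 5.34% lower in sham over control, and 8.03% and 18.0% in CLP over sham. For CLP plus stimulation over CLP these shares were 19.3% and 5.37%. Without the rich barcodes 519 and 261 of 3747 genes were higher and lower in sham over control. The numbers were 288 and 514 of 3425 for CLP over sham, and 873 and 303 of 4419 for CLP plus stimulation over CLP. The gene lists named below were scored by their members' counts and medians only. A log2 ratio is followed by the bounds of its counting interval.

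Sham T cells carried more cytotoxic RNA than control T cells. Of 14 measured cytotoxic genes, 10 were at least 2-fold higher and 0 at least 2-fold lower in sham, where 13.3% of all genes tested were that much higher and 5.34% that much lower. The median log2 ratio of the list was 1.49, and 1.33 without the rich barcodes, with 8 of 14 members then at least 2-fold higher.

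Granzyme genes were among them. Gzma, a granzyme that cleaves proteins in target cells (chr13:113093825-113100981, minus strand), stood at 388, 2319, 619.8 and 892 CPM, and its log2 ratio of sham over control was 2.57 (2.29 to 2.88). Gzmb, the caspase-activating granzyme, stood at 53.8, 649, 346 and 463 CPM, a ratio of 3.55 (2.83 to 4.48). Gzmk, a granzyme of memory-like CD8 cells (chr13:113171608-113225908, minus strand), had 1, 72, 0 and 0 counts in 1, 19, 0 and 0 cells. Gzmk was thus nearly confined to sham, with a single count in control and none in either library with CLP, and a log2 ratio of sham over control of 4.11 (2.17 to 10.01). Of the 20 cells with Gzmk, 19 had a CD8 gene.

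Other effector genes were higher in sham as well. The granule gene Nkg7 stood at 288, 871, 352 and 139 CPM (sham over control 1.59, 1.25 to 1.96), the chemokine gene Ccl4 at 161, 546, 966 and 864 CPM (1.74, 1.30 to 2.26), and the perforin gene Prf1 had 1, 29, 0 and 17 counts (2.82, 0.78 to 8.73). Of the memory and effector list, Ly6c2, a surface marker of effector and memory CD8 cells, stood at 138, 623, 389 and 168 CPM (2.15, 1.68 to 2.70), Cxcr3, a chemokine receptor of type 1 T cells, at 7.68, 56.4, 12.2 and 8.71 CPM (2.57, 0.93 to 5.97) and Klrg1, a receptor of late effector cells, at 19.2, 70.2, 12.2 and 5.23 CPM (1.75, 0.55 to 3.55). Ccl5, another chemokine of effector and memory cells, was the one cytotoxic list member below 0, at 2139, 1512, 2163 and 2774 CPM and a ratio of -0.50 (-0.65 to -0.35). The memory and effector list as a whole had 5 members at least 2-fold higher and 2 lower of 19, with a median of 0.07 (0.13 without the rich barcodes).

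In sham the effector genes were found mostly in the CD8 cells. Of the 32 sham T cells with a Cd8a or Cd8b1 UMI, 20 had Gzma, 21 Gzmb, 18 Gzmk, 28 Nkg7, 23 Ly6c2 and 20 Ifng. Of the 41 without, 2 had Gzma, 3 Gzmb, 1 Gzmk, 11 Nkg7, 9 Ly6c2 and 6 Ifng. At the level of summed RNA, Gzmb stood at 1098 CPM with and 10 CPM without a CD8 UMI, and Gzma at 3618 and 464 CPM. The cells with a CD8 UMI were also deeper (427278 UMIs in 32 cells against 299444 in 41). In CLP plus stimulation the 2 kinds of cell differed less in these genes, with Gzmb in 11 of 41 and 20 of 92 cells at 720 and 296 CPM, and 31 of the 41 cells with a CD8 UMI had the homing receptor gene Ccr7. Sham had Ccr7 in 14 of 32.

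**Figure D3:**
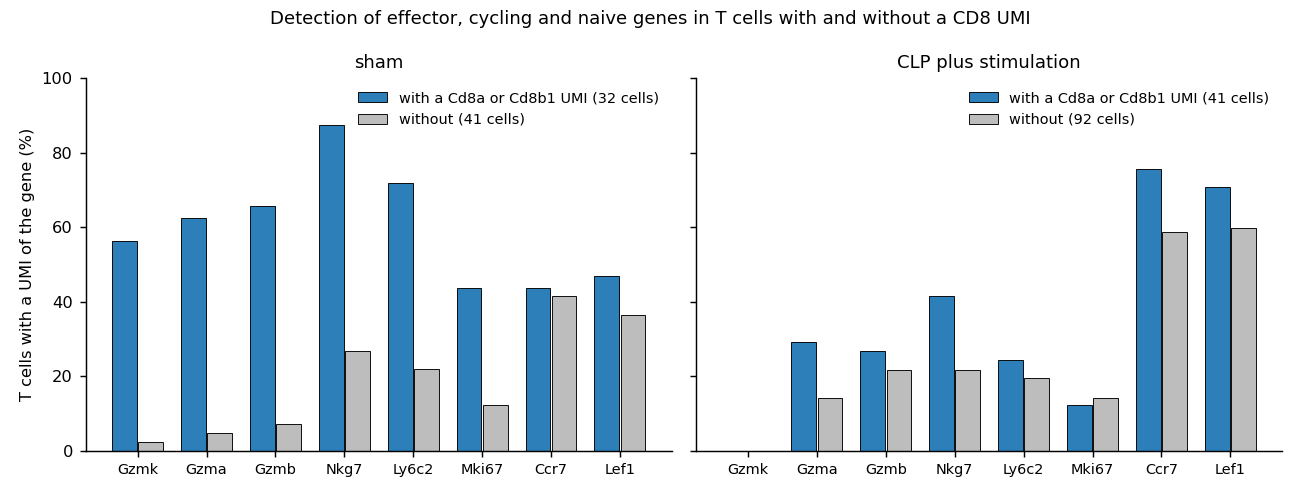
Percent of T cells with a UMI of 8 effector, cycling and naive genes, for cells with (blue) and without (grey) a Cd8a or Cd8b1 UMI, in sham and in CLP plus stimulation. In sham 18 of 32 CD8-positive cells and 1 of 41 others had Gzmk, and in CLP plus stimulation no T cell did while 31 of 41 CD8-positive cells had Ccr7.

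Summed over all T cells, the genes Ifng and Csf2 also had their highest levels in sham, but for neither did this hold clearly against CLP. The counting interval of Ifng in CLP over sham included 0, and without the rich barcodes CLP stood above sham, as given below. Ifng stood at 196, 583, 480.0 and 106 CPM in 10, 26, 6 and 26 cells, and the ratio of sham over control was 1.56 (1.15 to 2.02). In sham 20 of the 26 cells with Ifng had a CD8 gene. Csf2, the gene of the myeloid growth factor GM-CSF, had 0, 58, 2 and 3 counts in 0, 4, 1 and 3 cells, so the sham level rests on 4 cells. The ratio of Csf2 in CLP over sham moved from -2.41 to 0.06 without the rich barcodes.

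Sham T cells also had more RNA of the cell cycle. All 20 listed genes were measured and higher in sham than in control, 12 of them at least 2-fold, with a median log2 ratio of 1.18 (1.16 without the rich barcodes). Mki67, the proliferation antigen Ki-67, stood at 53.8, 179, 97.2 and 75.8 CPM in 6, 19, 1 and 18 cells (sham over control 1.69, 0.94 to 2.65). Rrm2, a subunit of the enzyme that makes deoxynucleotides, stood at 26.9, 146, 24.3 and 29.6 CPM (2.35, 1.35 to 3.79), the replication helicase gene Mcm5 at 15.4, 72.9, 12.2 and 20 CPM (2.09, 0.81 to 4.18) and Hmgb2, a chromatin protein of cycling cells, at 1429, 3247, 869 and 882 CPM (1.18, 1.03 to 1.35). In each of these genes sham was the highest library. Of the 19 sham cells with Mki67, 14 had a CD8 gene.

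Genes of replication outside the list were among the largest differences chosen by the rule for named genes. Lig1, a DNA ligase, stood at 15.4, 114, 36.5 and 16.6 CPM (2.73, 1.48 to 4.80), Rrm1, the other subunit of the deoxynucleotide enzyme, at 11.5, 78.4, 54.7 and 32.2 CPM (2.56, 1.15 to 5.09), Rpa3, a subunit of the protein that binds single-stranded DNA, at 7.68, 60.5, 18.2 and 10.5 CPM (2.67, 1.04 to 6.07) and Hist1h2an, one of many near-identical histone genes whose reads may be split, at 7.68, 89.4, 72.9 and 24.4 CPM (3.23, 1.63 to 6.62). Ctla2b, a protease inhibitor gene, and Polr2j, a subunit of RNA polymerase II, were also among the 10 highest, at 3.07 and 2.53.

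Promoters of cell cycle genes often carry a CCAAT box and the element TTTGAA, through which a repressor complex holds such genes down in resting cells. Searched on either strand in the 250 bases before the start of 18 listed cell cycle genes with an entry in RefSeq (GRCm38.p6), TTTGAA was found in 6 (33.3%) and CCAAT in 15 (83.3%), against 16.0% and 33.8% of all 32851 promoters. Both were found in 6 of the 18 and in 5.55% of all. All 20 listed genes were higher in sham than in control, and the promoters of 3 that were highest in sham are shown. These 3 are among the 6 that hold both motifs, so they are not typical of the 18. They run 5′ to 3′ on the gene's strand, with matches of either motif on either strand in capitals.
Ccnb2 (chr9:70421555-70421804, minus strand): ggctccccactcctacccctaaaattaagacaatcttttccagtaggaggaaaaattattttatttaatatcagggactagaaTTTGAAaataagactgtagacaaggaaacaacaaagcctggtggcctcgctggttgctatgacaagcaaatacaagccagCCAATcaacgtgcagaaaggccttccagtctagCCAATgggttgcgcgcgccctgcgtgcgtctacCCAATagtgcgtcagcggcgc
Cdk1 (chr10:69352913-69353162, minus strand): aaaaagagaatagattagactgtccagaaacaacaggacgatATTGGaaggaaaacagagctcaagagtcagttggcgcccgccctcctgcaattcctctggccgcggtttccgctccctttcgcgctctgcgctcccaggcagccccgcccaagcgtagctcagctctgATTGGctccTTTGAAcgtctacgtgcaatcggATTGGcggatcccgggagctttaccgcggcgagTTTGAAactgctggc
Mki67 (chr7:135716380-135716629, minus strand): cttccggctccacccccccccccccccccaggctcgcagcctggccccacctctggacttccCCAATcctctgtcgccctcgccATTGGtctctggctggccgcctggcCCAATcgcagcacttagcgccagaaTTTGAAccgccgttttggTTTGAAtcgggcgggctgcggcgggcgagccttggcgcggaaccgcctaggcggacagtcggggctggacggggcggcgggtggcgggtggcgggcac
The Ccnb2 stretch holds 1 TTTGAA and 3 CCAAT matches, and those of Cdk1 and Mki67 hold 2 and 3 each. A match is a description of these letters and not a measured binding site.

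Several genes of naive T cells were lower in sham than in control. Of 18 measured naive and quiescence genes, 1 was at least 2-fold higher and 3 at least 2-fold lower, with a median of -0.55 (-0.58 and 7 of 18 lower without the rich barcodes). Lef1, a transcription factor of naive cells, stood at 192, 59.2, 66.8 and 179 CPM (-1.70, -2.32 to -1.08), Bach2, which restrains effector genes, at 57.6, 17.9, 12.2 and 39.2 CPM (-1.68, -2.88 to -0.52) and Klf3, a factor of quiescent lymphocytes, at 173, 71.6, 42.5 and 188 CPM (-1.27, -1.88 to -0.66). Immediate early genes, which are induced within minutes of a stimulus or of cell dissociation, were all 16 lower in sham, with a median of -0.43 (-0.63 without the rich barcodes) and 2 at least 2-fold, and Jun stood at 1248, 527, 1373 and 1318 CPM (-1.24, -1.46 to -1.03).

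Further genes lower in sham than in control came from the rule for named genes. Ski, a repressor of TGF-beta signalling, stood at 108, 20.6, 60.8 and 54.0 CPM (-2.36, -3.39 to -1.43, and -2.95 without the rich barcodes), Paip2b, an inhibitor of translation, at 161, 19.3, 30.4 and 40.9 CPM (-3.03, -4.05 to -2.16) and the RNA helicase gene Helz at 80.6, 20.6, 18.2 and 63.6 CPM (-1.95, -3.03 to -0.94). In control 24 of the 42 Paip2b counts came from 1 cell. H2-DMa, a helper of class II peptide loading, and Cst3, a protease inhibitor abundant in macrophages, were also on the list, but their ratios moved from -3.12 to -0.72 and from -2.21 to 0.22 without the rich barcodes.

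CLP T cells had less RNA of the receptor complex than sham T cells. Of 19 measured genes of the T cell receptor complex and its proximal signalling, 9 were at least 2-fold lower and 0 higher, where 18.0% of all genes tested were that much lower and 8.03% that much higher. The median log2 ratio was -0.96, and -0.66 with 6 of 19 lower without the rich barcodes. The drop was not particular to T cells. In macrophages, which had no CD3 UMI, the list median was -0.96 with 6 of 13 genes at least 2-fold lower. It was -1.25 with 5 of 8 lower in natural killer cells (4 cells in CLP), and -0.54 with 1 of 5 lower in B cells. The share of all genes that much lower was not computed in those cells. Trac stood at 192, 333, 122 and 191 CPM (CLP over sham -1.42, -2.19 to -0.80), Cd28, the costimulatory receptor, at 292, 255, 97.2 and 121 CPM (-1.35, -2.23 to -0.65) and Cd5, an inhibitory coreceptor tuned by receptor signals, at 115, 83.9, 18.2 and 51.4 CPM (-1.99, -4.52 to -0.59). Sh2d1a, an adaptor of the SLAM receptors, stood at 73.0, 143, 24.3 and 18.3 CPM (-2.39, -4.46 to -1.16) and Lat at 280.3, 309.6, 128 and 149.8 CPM (-1.25, -2.0 to -0.63). Sham was higher than CLP in each, and control was between them for Trac, Sh2d1a and Lat. The beta chain constant genes Trbc1 and Trbc2 are near-identical copies whose reads may be split, and their ratios were -1.29 and -1.01. Without the rich barcodes Trbc1 stood at -0.43, Trbc2 at -0.79 and Lat at -0.90, each lower by less than 2-fold. Thinned to 1000 UMIs before the rule, CLP keeps 8 T cells and too few counts for most of these genes.

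CD8 genes had few counts in CLP and were lower there than in sham, the library with the highest levels. Cd8b1 (chr6:71322788-71337494, plus strand) had 31, 316, 4 and 51 counts in 12, 29, 2 and 34 cells, or 119, 435, 24.3 and 44.4 CPM. Cd8a (chr6:71373427-71379173, plus strand) had 7, 82, 0 and 25 counts. The level of Cd8b1 in CLP was lower than in sham by a log2 ratio of -3.99 (-6.05 to -2.79), and 3 of its 4 counts came from 1 cell, while Cd8a was at least 6.19-fold lower against the floor of 3 counts. The counting interval of Cd8a, which includes the error of the sham count, ended at a log2 ratio of -2.30. Runx3, the transcription factor of the CD8 lineage, stood at 104, 154, 60.8 and 219 CPM (-1.28, -2.44 to -0.41), lowest in CLP and highest with stimulation, and its ratio was -0.90 without the rich barcodes. The lineage list as a whole had 5 of 12 genes measured in CLP over sham. Gata3, a factor of type 2 helper cells, stood at 26.9, 42.7, 30.4 and 43.6 CPM (-0.38, -2.21 to 0.89, and 0.22 without the rich barcodes).

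Most cytotoxic genes were lower in CLP than in sham, with 9 of 14 measured members below 0 and 5 above. Of the 14, 8 were at least 2-fold lower and 1 higher, with a median of -1.23, or -1.08 with the 4 members at 0 in CLP set at the floor (-0.87 without the rich barcodes). Among all genes tested 18.0% were that much lower and 8.03% that much higher. The ratio of CLP over sham was -1.90 (-2.21 to -1.61) for Gzma, -0.90 (-1.33 to -0.51) for Gzmb and -1.29 (-1.72 to -0.92) for Nkg7, and Gzmk was at least 5.44-fold lower. In CLP, 100 of the 102 Gzma counts and 37 of the 57 Gzmb counts came from a single cell each. The chemokine genes Ccl3, Ccl4 and Ccl5 were among those above 0, Ccl3 at 61.4, 157, 583 and 473 CPM (1.90, 1.49 to 2.30) and Ccl4 at 0.83 (0.55 to 1.09). Neutrophils and macrophages make both chemokines, and without the rich barcodes the ratio of Ccl3 was 2.91 and that of Ccl4 1.07. The galectin gene Lgals1, high in effector cells, stood at 1444, 2831, 504 and 221 CPM, a ratio of -2.48 (-2.82 to -2.17).

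Cell cycle genes were all lower in CLP than in sham. Of 20 measured, 15 were at least 2-fold lower, with a median of -1.93 (-1.56 and 14 of 20 without the rich barcodes). Ube2c, a ubiquitin enzyme of mitotic exit, stood at 192, 282, 36.5 and 46.2 CPM (-2.84, -4.41 to -1.81), the cyclin gene Ccnb2 at 88.3, 131, 18.2 and 18.3 CPM (-2.63, -5.15 to -1.25) and Cenpa, the centromere histone, at 96.0, 222, 30.4 and 75.8 CPM (-2.73, -4.51 to -1.61). Cdk1, the kinase that starts mitosis, stood at 26.9, 68.8, 18.2 and 30.5 CPM (-1.71, -4.24 to -0.29). All 16 Mki67 counts of CLP came from 1 cell, and 14 of the 15 Top2a counts in CLP came from 1 cell. Racgap1, Cdc20 and Cdkn3, cell division genes outside the list, had 75, 44 and 44 counts in sham and none in CLP, at least 5.66-fold, 3.32-fold and 3.32-fold lower. Themis, a thymocyte selection and receptor signalling gene, had 42 and 0 counts and was at least 3.17-fold lower. Csrp2 was on the list of lowest genes too, but 94 of its 103 sham counts came from 1 cell.

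**Figure D4:**
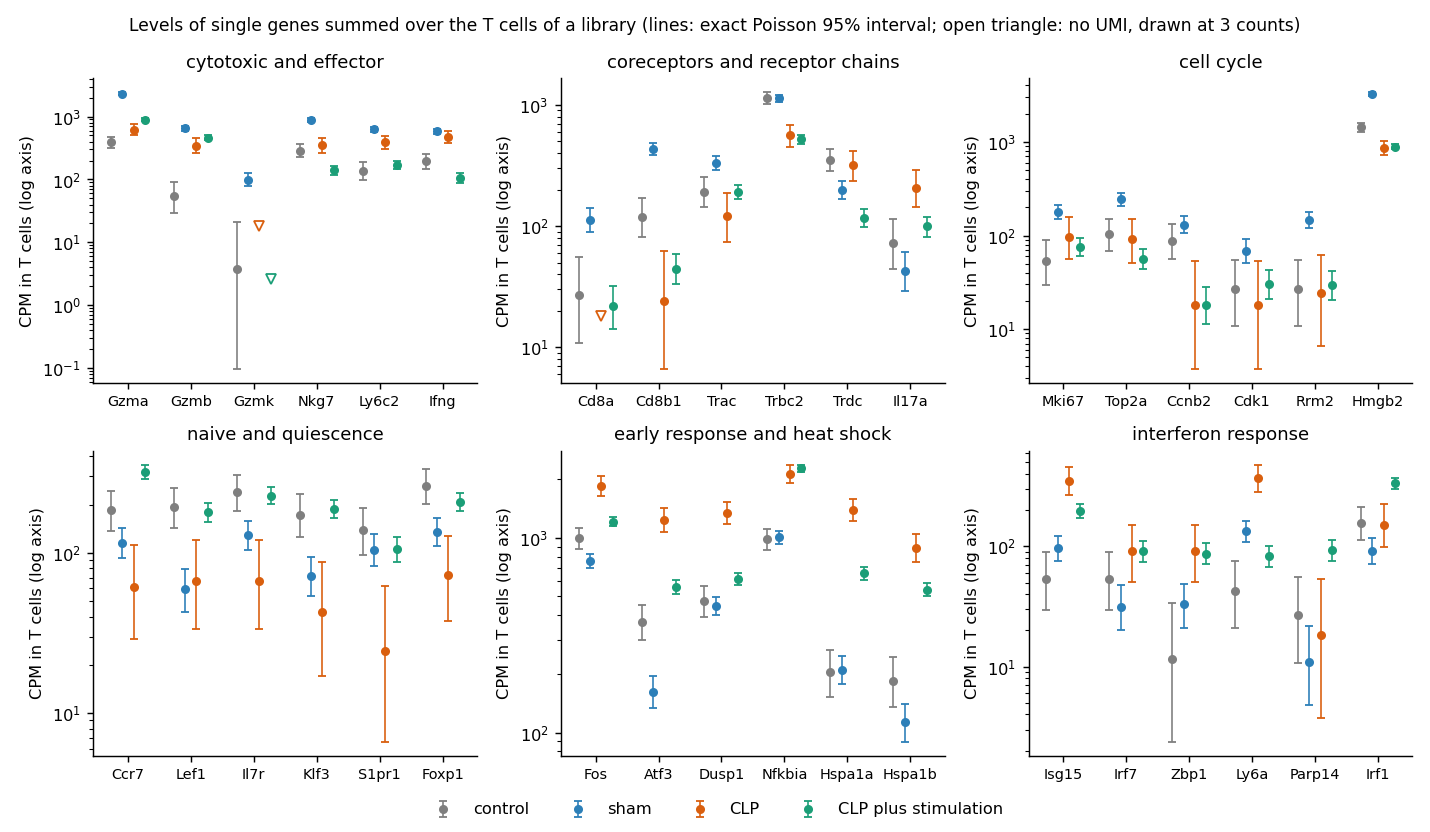
CPM of 36 genes summed over the T cells of each library, on log axes, with exact Poisson 95% intervals and open triangles at 3 counts where a library had none. Cytotoxic and cell cycle genes peak in sham (Gzma 2319, Hmgb2 3247 CPM), early response and heat shock genes peak in CLP except Nfkbia (Atf3 1240, Hspa1a 1398 CPM), and Ccr7 peaks in CLP plus stimulation (319 CPM).

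Immediate early genes were higher in CLP than in sham. All 16 were above 0 and 9 at least 2-fold higher, with a median of 1.14 (1.10 and 11 of 16 without the rich barcodes). Atf3, a stress-induced transcription factor, stood at 369, 162, 1239.6 and 560.1 CPM (CLP over sham 2.93, 2.60 to 3.27), Dusp1, a phosphatase that ends MAP kinase signals, at 472, 447, 1343 and 615 CPM (1.59, 1.33 to 1.84), and Fos, a partner of Jun in AP-1, at 995, 759.6, 1847 and 1209.9 CPM (1.28, 1.08 to 1.49). Jun stood at 1248, 527, 1373 and 1318 CPM, where control was close to CLP and sham was the low library. Without the rich barcodes the ratio was 3.93 for Atf3 and 2.18 for Dusp1. In CLP the highest Atf3 level among macrophages, fibroblasts, endothelial cells and neutrophils was 3229 CPM, above that of T cells. The part of free RNA was not tested. When every cell was given the same weight, the list median was 0.52.

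Heat shock genes of the inducible kind were higher in CLP as well. Hspa1a and Hspa1b, near-identical copies of the inducible HSP70 gene whose reads may be split, stood at 204, 211, 1398 and 657 CPM and 184, 113, 887 and 542 CPM, and their log2 ratios of CLP over sham were 2.73 (2.43 to 3.04) and 2.97 (2.57 to 3.38). In CLP 132 of the 230 Hspa1a counts and 85 of the 146 Hspa1b counts came from 1 cell, and without the rich barcodes the ratios were 2.89 and 2.26. Their cochaperone gene Dnajb1 stood at 323, 194, 547 and 520.0 CPM (1.5, 1.10 to 1.89), and the constitutive chaperone gene Hsp90ab1 at 3318, 2539, 2783 and 3417 CPM (0.13, -0.02 to 0.28). Of 13 measured heat shock genes, 4 were at least 2-fold higher and 1 lower, with a median of 0.63 (0.62 without the rich barcodes). The shares over all genes of the T cells were 8.03% and 18.0%. Macrophages of the same libraries had 8 of 14 at least 2-fold higher, and B cells 4 of 12. The share of all genes that much higher was not computed in macrophages or B cells, so these counts have no background. In CLP the highest Hspa1b level among macrophages, fibroblasts, endothelial cells and neutrophils was 2635 CPM, above the 887 CPM of T cells. The part of free RNA was not tested.

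Of genes that respond to glucocorticoids, 7 of 17 were at least 2-fold higher in CLP than in sham and 0 lower, with a median of 0.87 (0.86 without the rich barcodes). Among all genes tested 8.03% were that much higher and 18.0% that much lower. Ddit4, an inhibitor of mTOR signalling, stood at 15.4, 13.8, 85.1 and 59.2 CPM (2.61, 1.35 to 3.96), Cebpd, a transcription factor, at 19.2, 9.63, 60.8 and 81.0 CPM (2.63, 1.12 to 4.29) and Txnip, a regulator of glucose uptake, at 465, 197, 449.6 and 655 CPM (1.20, 0.77 to 1.61). The best known members were closer together, with Tsc22d3, the glucocorticoid-induced leucine zipper, at 234, 103, 176 and 348 CPM (0.79, 0.10 to 1.41), Fkbp5 at 0.94 (-0.26 to 1.97) and Per1 at -0.64 (-1.99 to 0.36). Without the rich barcodes Txnip had a ratio of 0.86, Fkbp5 of 1.07 and Per1 of 0.28. Dusp1 and Zfp36 are on both this list and the immediate early list. Nfkbia, the inhibitor of NF-kappaB, stood at 987, 1006, 2133 and 2277 CPM (1.09, 0.90 to 1.27).

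The interferon response in CLP was carried by few genes. Of 17 measured members of 40, 5 were at least 2-fold higher in CLP than in sham and 1 lower, with a median of 0.37 (0.67 without the rich barcodes). Among all genes tested 8.03% were that much higher and 18.0% that much lower. Isg15, a ubiquitin-like protein (chr4:156199424-156200818, minus strand), stood at 53.8, 96.3, 352 and 198 CPM (1.87, 1.34 to 2.39, and 2.74 without the rich barcodes). In CLP its highest level among macrophages, fibroblasts, endothelial cells and neutrophils was 697 CPM, above that of T cells. The part of free RNA was not tested. Slfn2, a factor of T cell quiescence, stood at 211, 107, 316 and 511 CPM (1.56, 1.02 to 2.08) and Zbp1, a sensor of nucleic acids, at 11.5, 33.0, 91.1 and 87.1 CPM (1.48, 0.43 to 2.45). Irf7, a transcription factor of the response, stood at 53.8, 31.6, 91.1 and 91.5 CPM (1.54, 0.48 to 2.53), but at 0.34 without the rich barcodes, and 9 of its 15 CLP counts came from 1 cell. Ly6a, the surface antigen Sca-1, stood at 42.2, 135, 371 and 82.8 CPM. Of its 61 CLP counts, 51 came from 1 cell, and without barcodes shared between libraries its ratio turned from 1.46 to -0.90. The group of MHC class I genes had 3 of 16 at least 2-fold lower, a share near the 18.0% of all genes, and a median of -0.50 (-0.20 without the rich barcodes), with the peptide transporter genes Tap1 and Tap2 at 57.6, 64.7, 18.2 and 89.7 CPM and 57.6, 85.3, 18.2 and 57.5 CPM.

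Promoters of interferon genes carry an element whose core is GAAA, any 2 bases and GAAA again, to which an interferon-activated complex binds. Searched on either strand, it was found in 18 of 38 RefSeq promoters of 30 listed interferon genes (47.4%) and in 2.98% of all promoters. The 250 bases before the start of Isg15, the measured gene of the list with the highest CLP over sham ratio, hold 3 overlapping matches, which are in capitals.
Isg15 (chr4:156200819-156201068, minus strand): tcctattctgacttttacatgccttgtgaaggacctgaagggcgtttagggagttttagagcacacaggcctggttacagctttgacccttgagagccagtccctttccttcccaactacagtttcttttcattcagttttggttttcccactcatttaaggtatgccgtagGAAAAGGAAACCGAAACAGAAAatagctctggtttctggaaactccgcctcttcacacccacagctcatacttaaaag

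Cytokine genes differed singly in CLP. Xcl1, a chemokine gene that draws dendritic cells, stood at 46.1, 20.6, 139.8 and 23.5 CPM in 5, 5, 5 and 8 cells (2.74, 1.76 to 3.8), Tnf at 69.1, 99.1, 194 and 101 CPM (0.99, 0.32 to 1.59) and Il17a had a ratio of 2.27 (1.53 to 3.03). Ifng had a ratio of -0.27 (-0.65 to 0.07), and 50 of its 79 CLP counts came from 1 cell. Areg, the epidermal growth factor ligand amphiregulin, had 6, 69, 0 and 24 counts, and 52 of the 69 in sham came from 1 cell. Without the rich barcodes Xcl1 had a ratio of 3.85, Tnf of 1.23, Ifng of 0.34 and Il17a of 5.32, and 24 of the 31 sham counts of Il17a came from 1 cell. Of 9 measured cytokine genes 2 were at least 2-fold higher and 3 lower, with a median of -0.27, but without the rich barcodes 3 were higher and 0 lower of 7, with a median of 0.45.

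Further named genes were higher in CLP than in sham. For Plin2, Ier3, Neat1 and Cxcl2, macrophages, fibroblasts, endothelial cells or neutrophils of CLP had a higher level than its T cells. The highest of these other levels were 736, 1055, 1347 and 12254 CPM. The part of free RNA from other cells in the T cell levels was not tested. Plin2, a coat protein of lipid droplets, stood at 46.1, 50.9, 255 and 207 CPM (2.32, 1.65 to 3.00), Ier3, an early response gene, at 115, 124, 541 and 274 CPM (2.13, 1.69 to 2.57, and 3.13 without the rich barcodes) and Neat1, a long noncoding RNA of nuclear paraspeckles, at 261, 187, 699 and 483 CPM (1.90, 1.53 to 2.27). Cxcl2, a chemokine gene abundant in neutrophils and macrophages, stood at 376, 1169.6, 4241 and 3060.1 CPM (1.86, 1.71 to 2.00), and 3.78 without the rich barcodes. Cflar, an inhibitor of death receptor signalling, stood at 53.8, 48.2, 182 and 88.9 CPM (1.92, 1.17 to 2.67), and 20 of its 30 CLP counts came from 1 cell. Gadd45b, a stress sensor gene, stood at 614, 336, 839 and 637 CPM (1.32, 1.01 to 1.63). The apoptosis and survival list had 4 members at least 2-fold higher and 1 lower of 16 (median 0.31, and 0.34 without the rich barcodes). The shares over all genes were 8.03% and 18.0%. Bcl2l11, the death factor BIM, stood at 92.2, 42.7, 91.1 and 199 CPM (1.12, 0.10 to 2.03).

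With stimulation added to CLP, genes of naive T cells were higher. Of 19 measured naive and quiescence genes, 9 were at least 2-fold higher and 2 lower, where 19.3% of all genes tested were that much higher and 5.37% that much lower. The median log2 ratio of CLP plus stimulation over CLP was 0.77, and 1.33 with 11 of 18 higher without the rich barcodes. Ccr7 (chr11:99144196-99155077, minus strand) stood at 184, 116, 60.8 and 319 CPM in 25, 31, 7 and 85 cells (2.32, 1.5 to 3.46). Il7r, the receptor for the survival cytokine interleukin 7, stood at 238, 129, 66.8 and 227 CPM (1.70, 0.90 to 2.79), S1pr1, the receptor that lets lymphocytes leave tissue, at 138, 105, 24.3 and 105 CPM (1.95, 0.72 to 4.02) and Klf3 at 173, 71.6, 42.5 and 188 CPM (2.05, 1.08 to 3.48). Foxp1, a quiescence factor, stood at 261, 135, 72.9 and 207 CPM (1.45, 0.68 to 2.48) and Lef1 at 1.36 (0.55 to 2.44).

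Ccr7, Il7r, Klf3, S1pr1 and Foxp1 were lowest in CLP, while Lef1 was lowest in sham with CLP close to it. For Ccr7 and Klf3 the stimulated library was the highest of the 4, for Lef1, Il7r and Foxp1 it was second to control, and for S1pr1 it was level with sham. Ccr7 and Lef1 were found together in 19, 17, 3 and 64 T cells. The exceptions were Igfbp4, a binding protein of insulin-like growth factors, at 80.6, 46.8, 134 and 27.9 CPM (-2.27, -3.09 to -1.41), and Dapl1, a gene of naive and memory precursor cells, at 42.2, 67.4, 60.8 and 10.5 CPM (-2.55, -3.88 to -1.17). Tcf7, the partner of Lef1, stood at 127, 122, 85.1 and 128 CPM (0.54, -0.20 to 1.5). Without the rich barcodes the ratio was 1.21 for Tcf7 and 3.21 for Klf3. The CLP values rest on few reads, from 4 counts for S1pr1 to 22 for Igfbp4. Klf2, a factor that drives S1pr1, had more, with 305, 668, 197 and 1845 counts, and stood at 1171, 919, 1197 and 1607 CPM (0.42, 0.21 to 0.64).

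**Figure D5:**
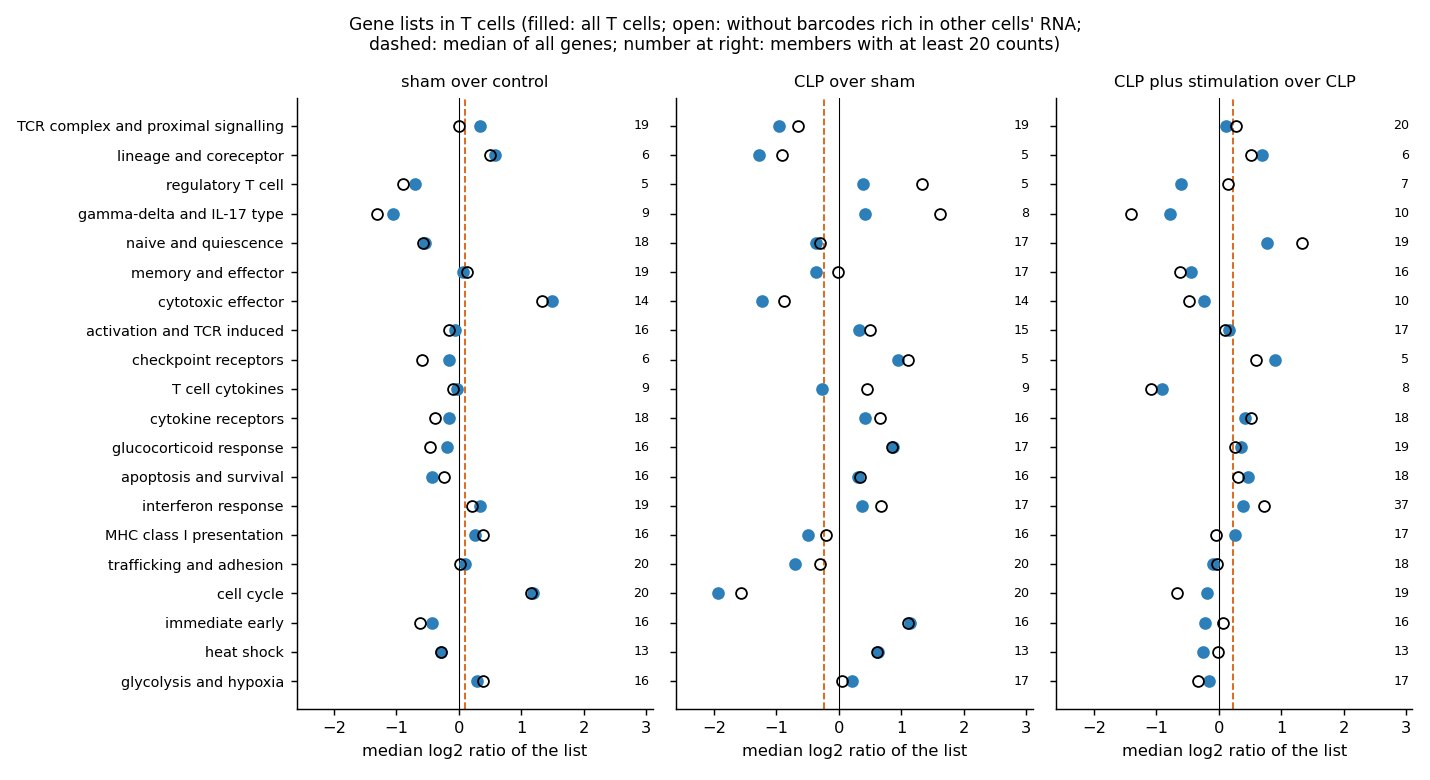
Median log2 ratio of 20 gene lists in the 3 comparisons, for all T cells (filled points) and without barcodes rich in other cells' RNA (open points), with a solid line at 0, a dashed line at the median of all genes and the number of measured members at the right. Cytotoxic and cell cycle lists lie to the right in sham over control (1.49 and 1.18) and to the left in CLP over sham (-1.23 and -1.93), and the naive list lies to the right in CLP plus stimulation over CLP (0.77, and 1.33 in the open point).

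Interferon genes split in direction with stimulation. Of 37 measured, 15 were at least 2-fold higher than in CLP and 4 lower, with a median of 0.39 (0.73 without the rich barcodes). Among all genes tested 19.3% were that much higher and 5.37% that much lower. Parp14, a mono-ADP-ribosyltransferase, stood at 26.9, 11, 18.2 and 93.2 CPM (2.14, 0.77 to 4.65), Irgm1, an interferon-induced GTPase, at 0, 19.3, 6.08 and 38.3 CPM (2.09, 0.10 to 7.99) and Irf1, a factor induced by interferon gamma, at 157, 92.2, 152 and 335 CPM (1.12, 0.56 to 1.79). Xaf1 had 2, 14, 0 and 51 counts. On the other side, Ifi27l2a stood at 795, 689, 1155 and 379.8 CPM (-1.61, -1.85 to -1.35), Ly6e at 234, 315, 535 and 197 CPM (-1.45, -1.80 to -1.07) and Isg15 at -0.84 (-1.26 to -0.39), and Ly6a had a ratio of -2.17 that became 0.20 without barcodes shared between libraries. MHC class I genes had 3 of 17 at least 2-fold higher, a share near the 19.3% of all genes, namely Tap1 (2.08, 0.71 to 4.60), Tap2 (1.45, 0.05 to 3.97) and the class Ib gene H2-Q4 at 257, 216, 207 and 486 CPM (1.21, 0.73 to 1.78), while B2m, the shared light chain, stood at 1217, 1522, 1519 and 1364 CPM (-0.16, -0.35 to 0.04).

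Effector genes split in direction with stimulation. Ifng had the ratio -2.18 (-2.6 to -1.75), Nkg7 -1.35 (-1.78 to -0.88), Ly6c2 -1.22 (-1.62 to -0.78) and Lgals1 -1.19 (-1.55 to -0.81), each lower than in CLP. Gzma at 0.52 (0.23 to 0.83) and Gzmb at 0.41 (0.02 to 0.84) were higher by less than 2-fold, and the cytotoxic list had 0 genes at least 2-fold higher and 2 lower of 10 (median -0.24). Xcl1 had the ratio -2.58 (-3.43 to -1.70) and Tnf -0.96 (-1.52 to -0.33). Cell cycle genes lay near 0 with a median of -0.18 (-0.67 and 6 of 16 at least 2-fold lower without the rich barcodes). Of the early response genes, Atf3 had the ratio -1.15 (-1.38 to -0.91) and Dusp1 -1.13 (-1.35 to -0.90), and Hspa1a -1.09 (-1.30 to -0.87), where the list medians were -0.22 and -0.26 (0.07 and -0.01 without the rich barcodes). Without the rich barcodes the ratio was -0.41 for Hspa1a, -3.81 for Xcl1 and -1.38 for Tnf. The CLP counts of Gzma, Gzmb and Ifng came mostly from 1 cell each, as given above.

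Ctla4, an inhibitory receptor of activated and regulatory T cells, was found in 4, 8, 5 and 47 cells at 49.9, 30.3, 97.2 and 109 CPM. Of the 47 stimulated cells with it, 27 had Ccr7 and 2 had Foxp3. Pdcd1, the gene of PD-1, had 3, 2, 2 and 41 counts in 2, 2, 1 and 15 cells, and Tox, a factor of exhausted T cells, stood at 46.1, 23.4, 48.6 and 9.58 CPM (-2.37, -3.79 to -0.82). The checkpoint list had 5 of 12 genes measured, 2 at least 2-fold higher and 1 lower, and its median was 0.90, or 0.12 with the member at 0 in CLP set at the floor (0.60 over 4 genes without the rich barcodes).

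Several of the named genes with the highest ratio of CLP plus stimulation over CLP were class II or antigen-presenting cell genes. H2-Aa and H2-Eb1 had 2 and 4 counts in CLP and 1126 and 1451 with stimulation, and their ratios went from 6.01 and 5.53 to 1.31 and 0.85 without the rich barcodes. H2-DMa, Cd83, a dendritic cell surface protein, Tnip3, an NF-kappaB inhibitor, and Pkib had none in CLP and were at least 4.59, 4.30, 3.54 and 2.82-fold higher. Other genes with no CLP count were spread over many cells. Dennd5b, a regulator of vesicle traffic, had 132 counts in 37 cells (at least 6.31-fold higher), Trim24, a chromatin reader, 70 counts in 47 cells (at least 3.34-fold), Pip5k1a, a lipid kinase, 68 counts in 46 cells (at least 3.25-fold) and Zmynd11, another chromatin reader, 61 counts in 39 cells (at least 2.91-fold). In sham these 4 genes had 8, 11, 18 and 26 counts.

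Further named genes were lower with stimulation. Gstp1, a glutathione transferase, stood at 30.7, 102, 128 and 38.3 CPM (-1.75, -2.52 to -0.91), Cd52, a lymphocyte surface glycoprotein, at 1617, 1977, 2127 and 787 CPM (-1.44, -1.61 to -1.25), Rac2, a GTPase of blood cell migration, at 561, 647, 565 and 237 CPM (-1.26, -1.60 to -0.90) and Cnn2, an actin-binding protein, at 108, 162, 134 and 50.5 CPM (-1.42, -2.13 to -0.62, and -2.13 without the rich barcodes). For Cd52 and Rac2 the stimulated library was the lowest of the 4, and control, sham and CLP lay close together. Ptprcap, a partner of CD45 in lymphocytes, stood at 323, 443, 225 and 72.3 CPM (-1.65, -2.21 to -1.04) with 20 of its 37 CLP counts in 1 cell, and the gut-homing integrin gene Itgb7 at 219, 224, 79.0 and 34.8 CPM (-1.22, -2.11 to -0.15).

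Other lists had these medians. The activation list had medians of -0.06, 0.33 and 0.16 in the 3 comparisons, cytokine receptors -0.16, 0.42 and 0.42, trafficking 0.09, -0.71 and -0.09, and glycolysis 0.30, 0.22 and -0.15. With the rich barcodes left out, the medians were -0.16, 0.50 and 0.10 for activation, -0.38, 0.65 and 0.51 for cytokine receptors, 0.02, -0.29 and -0.03 for trafficking, and 0.39, 0.05 and -0.33 for glycolysis. Within them, Pgk1, an enzyme of glycolysis, stood at 99.8, 223, 182 and 127 CPM (sham over control 1.14, 0.56 to 1.82), Tpi1, another, at 69.1, 132, 213 and 67.9 CPM (CLP plus stimulation over CLP -1.66, -2.24 to -1.03), Il4ra, the interleukin 4 receptor, at 127, 49.5, 72.9 and 118 CPM (sham over control -1.36, -2.08 to -0.63) and Myc, a growth regulator, at 19.2, 57.8, 97.2 and 25.3 CPM (CLP plus stimulation over CLP -1.96, -2.87 to -0.97). In CLP 21 of the 35 Tpi1 counts and 10 of the 16 Myc counts came from 1 cell. The regulatory list had 5, 5 and 7 of 14 genes measured, with 1, 1 and 2 at least 2-fold higher and 1, 1 and 2 lower. Its medians were -0.70, 0.39 and -0.61, and -0.90, 1.33 and 0.15 over 4, 3 and 5 genes without the rich barcodes, so its values rest on few genes. The survival factor Mcl1 stood at 453, 383, 541 and 939.9 CPM (CLP plus stimulation over CLP 0.79, 0.48 to 1.13, and 1.14 without the rich barcodes).

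B cells of the same libraries gave some like and some unlike values. Their cell cycle list had medians of 0.38, -0.43 and 2.22 in the 3 comparisons over 10, 9 and 17 measured genes, where T cells had 1.18, -1.93 and -0.18. Their immediate early list had medians of 0.25, 0.21 and -0.31, against -0.43, 1.14 and -0.22 in T cells, and their naive list -0.04, -0.38 and 0.03, against -0.55, -0.37 and 0.77. MHC class I genes lay close in both, at 0.27, -0.60 and 0.08 in B cells and 0.26, -0.50 and 0.26 in T cells. The cytotoxic list had medians of -1.61, 3.39 and -0.70 over 4 genes in B cells, against 1.49, -1.23 and -0.24 in T cells. In natural killer cells its medians were 0.06, 0.26 and -0.69 over 10, 10 and 9 genes. With 1 library a group the differences between these cell types were not tested, and the natural killer cells, at 4 to 23 a library, had too few counts for many lists.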

How the data were processed

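Single-cell RNA of 4 whole-heart libraries was analysed, made with a Chromium 3' version 3 kit per the labels' protocols. The authors deposited 1 matrix of UMI counts for each library, not normalized and with 32285 genes, written by Cell Ranger 5.0.0 per the file headers. STAR and the build mm10 are named in the submitters' processing notes. Barcodes with at least 500 UMIs, at least 200 genes and at most 20% mitochondrial UMIs were kept. The T cells, their rule and all gene lists were chosen with earlier results of these data known. No authors' cell annotation was used here.

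UMIs were summed over the T cells of a library and given as CPM, with Poisson intervals that are exact. A prior count of 0.5 entered each log2 ratio, with exact conditional binomial intervals, and shares have Clopper-Pearson intervals. UMIs count molecules, and all intervals and the floor of 3 counts cover counting error only. A fold given as at least sets the observed level of the higher library against 3 counts in the library without any. It leaves out the counting error of the higher library, so the end of the exact interval can lie nearer to no change. With 1 library a group, no test across samples was possible. The summed-count step was tested on simulated data.

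The text names, for each comparison, the 10 highest and 10 lowest ratios among genes with at least 50 CPM and 10 T cells in the higher library, passing over ribosomal, mitochondrial, receptor segment and unnamed genes, genes of other cells' marker lists and genes whose level in another cell gate was over 3 times that in T cells. To these it adds members of the lineage list and the 3 highest and 3 lowest of each other list. Other genes named, among them the genes of the receptor check, the subset checks and further list members, were chosen after their values were seen. Some members of the lists are not reported here by name. Doublets were scored with Scrublet in scanpy 1.11.5, and high scores were left out only in an alternative. Further alternatives were other numbers of CD3 chains, depth and mitochondrial limits, thinning, prior counts, count minimums, the mean of cells, TMM scaling in edgeR 4.0.16 and leaving out shared barcodes or barcodes rich in other cells' RNA. Python 3.11.15, numpy 2.4.6, pandas 2.3.3, SciPy 1.17.1, matplotlib 3.10.9 and R 4.3.3 were used.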

Additional observations from a re-analysis of the deposited data

How the results depend on the processing

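No paired analysis was possible because each group is 1 library, and for the same reason no replicate could be left out. Ratios of named genes were counted once per gene, comparison and setting. Of these, 6051 stayed within the counting interval of the main setting, 516 left it and 16 reversed. Many of these intervals are wide, so staying within them does not mean a small change. Of the 6051, 477 and 391 came from the count minimums of 1 and 50, which cannot change a gene's ratio. Genes under the count minimum in a setting were not scored. Of the list medians, 859 stayed within a band as wide as the typical interval of their members, 29 left it and 1 reversed. With all 3 CD3 chains the T cell shares were 0.141%, 0.535%, 0.120% and 0.567% in the order of the groups, the sham over control log2 ratio was 1.92, 563 genes were at least 2-fold higher in CLP plus stimulation than in CLP, Cflar reversed to -0.16 in CLP over sham and to 0.69 with stimulation, and Hspa1a to 0.27 with stimulation. With at least 1 chain the shares were 0.686%, 1.05%, 0.504% and 3.6%, and with stimulation the CD8 share was 20.3% and the Trdc share 7.40%. With at least 1000 UMIs the stimulated share was 1.84%. With no limits on other cells' RNA, a setting chosen after seeing the data, the shares were 1.38%, 2.38%, 0.60% and 2.57%. Thinning every cell to 1000 UMIs before the rule left 8 CLP T cells and gave shares of 0.229%, 0.247%, 0.109% and 0.334%, log2 ratios of 0.11 for sham over control and 1.62 for stimulation, Cd4 shares of 0 in control, sham and CLP plus stimulation, CD8 shares of 10%, 20%, 0% and 0%, and Trdc shares of 37.5% in CLP and 8.33% with stimulation. It left 23 genes higher and 22 lower in sham over control, 15 and 12 in CLP over sham, and 18 and 17 with stimulation, with Cxcl2 at -0.69 in sham over control and the lineage list median at 2.20 in CLP over sham. The same numbers of genes were 256 and 73, 140 and 340, and 486 and 93 at a minimum of 50 counts, and 2058 and 2074, 2381 and 2229, and 2014 and 3536 at a minimum of 1 count. A prior count of 5, which weighs more on the smaller library by construction, gave 144 genes higher in sham over control, 619 higher and 110 lower in CLP over sham, and 69 higher and 1056 lower with stimulation. It put Pmaip1 at 0.027 in CLP over sham, and Areg at -0.27, Cd8a at -0.22, Pdcd1 at -0.086 and Tbc1d10c at -0.17 with stimulation. A prior of 5 in proportion to the totals, chosen after seeing the data, gave 129 lower in sham over control and 183 lower with stimulation. The mean of cells gave 466 lower with stimulation and Hspb1 at 0.14 in CLP over sham. Without barcodes rich in other cells' RNA, chosen after seeing the data, 514 genes were lower in CLP over sham, Cst3 stood at 0.22 in sham over control and -0.17 with stimulation, and H2-Eb1 at 1.95 in sham over control. Without shared barcodes 49 gene ratios left their counting interval and 3 reversed. Those reversed were Ly6a, at -0.90 in CLP over sham and 0.20 with stimulation, and Hist1h2an, at 2.55 with stimulation. Except where stated, the cause was not tested. The 21 CLP T cells limit every comparison with CLP: 3 counts there are 18.2 CPM, and a single cell can hold most counts of a gene.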

Other observations

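Reads of receptor variable segments were few, as the kit reads transcripts at their 3' end. Alpha chain variable genes had 6, 21, 1 and 16 UMIs over the libraries from control to CLP plus stimulation, and beta chain variable genes 7, 19, 3 and 28, so the clonal makeup of the T cells could not be described.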
